A study of Mus musculus with 10 samples.

Results

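Transcripts of 36 genes that carry glucose into the cell and break it down were measured in tumour-associated macrophages from mice given the glutamine antagonist JHU083 or its vehicle. The 36 members are the glucose transporters, the enzymes of glycolysis, the enzymes and transporters of lactate and pyruvate, the phosphoglucomutases and the enzymes of the pentose phosphate pathway. They were found by gene symbol and make up 36 of the 46956 named loci in the table. All 36 were found, and all 36 were among the 12500 loci with enough reads to be tested.

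The host mice were of the BALB/cJ strain and carried tumours of 4T1, a murine breast cancer cell line, in the mammary fat pad. The 5 vehicle samples come from mice given PBS. The 5 JHU083 samples come from mice given 1 mg/kg of JHU083, which releases the glutamine antagonist 6-diazo-5-oxo-L-norleucine, from day 7 to day 13, and the tumours of both groups were taken on day 14. The sorted cells were positive for CD45, CD11b and F4/80 and negative for 7AAD (a dye that enters dead cells), CD8, Ly6C and Ly6G. The labels name no altered gene in the hosts and do not say whether a sample is 1 mouse or several, so each p-value measures the spread between these samples, which may in part be technical.

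Glycolysis splits glucose into pyruvate and yields ATP and NADH. Lactate dehydrogenase regenerates the NAD+ that this needs, and monocarboxylate transporters export the lactate. The pentose phosphate pathway leaves glycolysis at glucose-6-phosphate, with an oxidative arm that makes NADPH and a non-oxidative arm that exchanges sugars with glycolysis. In macrophages these pathways are known for their rise on inflammatory activation and under low oxygen, where the transcription factor HIF1A drives many of their genes, and MYC is another known activator.

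The libraries held 11147870 to 14575932 fragments in the vehicle group and 13638381 to 15740701 in the JHU083 group. Macrophage genes were abundant in every library: Adgre1, which encodes F4/80, averaged 595 ± 39.3 (SD, n = 5) CPM (fragments per 1000000 of the scaled library) in vehicle and 922 ± 39.3 in JHU083 samples. The ribosomal RNA loci Gm42418 and Rn18s-rs5 stood at 0 in vehicle replicates 2, 4 and 5 and JHU083 replicates 1 and 3, and took 2.87 to 5.59% of the fragments of the other 5 libraries, so that the samples form 2 sets which both hold samples of either group. Mitochondrial transcripts took 1.53 to 2.09% of the fragments in vehicle and 2.14 to 2.44% in JHU083 samples, with no overlap, and their part in the results was not tested. Both sets are given separately beside the main counts.

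The 250 bases before the RefSeq transcription start (build GRCm38.p6) are shown for the members with the 4 largest falls and the largest rise. They are written 5′ to 3′ on the strand of the gene, with capitals for every match to ACGTG on either strand. These letters are the core of the element that HIF binds, together with GCGTG, and CACGTG is the E-box that MYC binds.
Hk3, chr13:55021386-55021635, minus strand: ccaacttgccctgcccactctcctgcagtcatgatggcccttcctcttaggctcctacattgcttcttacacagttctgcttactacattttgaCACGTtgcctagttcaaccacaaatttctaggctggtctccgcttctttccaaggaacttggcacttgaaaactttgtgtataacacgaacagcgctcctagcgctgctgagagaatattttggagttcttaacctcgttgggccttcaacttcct
Aldoc, chr11:78322823-78323072, plus strand: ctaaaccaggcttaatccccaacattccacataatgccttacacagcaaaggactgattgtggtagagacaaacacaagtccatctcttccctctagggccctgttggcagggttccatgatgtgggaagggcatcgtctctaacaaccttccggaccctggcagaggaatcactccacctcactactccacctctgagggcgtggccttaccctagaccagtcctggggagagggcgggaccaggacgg
Slc16a3, chr11:120948817-120949066, plus strand: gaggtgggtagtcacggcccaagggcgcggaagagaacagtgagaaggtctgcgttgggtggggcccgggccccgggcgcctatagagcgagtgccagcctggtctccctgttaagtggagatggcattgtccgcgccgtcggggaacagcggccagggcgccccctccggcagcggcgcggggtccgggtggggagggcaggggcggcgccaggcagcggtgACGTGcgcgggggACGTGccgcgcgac
Ldha, chr7:46845554-46845803, plus strand: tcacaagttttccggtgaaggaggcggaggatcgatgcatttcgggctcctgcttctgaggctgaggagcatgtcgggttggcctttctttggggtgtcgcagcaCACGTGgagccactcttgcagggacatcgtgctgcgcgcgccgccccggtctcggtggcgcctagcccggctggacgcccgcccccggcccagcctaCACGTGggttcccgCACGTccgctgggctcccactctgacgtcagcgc
Ldhb, chr6:142507958-142508207, minus strand: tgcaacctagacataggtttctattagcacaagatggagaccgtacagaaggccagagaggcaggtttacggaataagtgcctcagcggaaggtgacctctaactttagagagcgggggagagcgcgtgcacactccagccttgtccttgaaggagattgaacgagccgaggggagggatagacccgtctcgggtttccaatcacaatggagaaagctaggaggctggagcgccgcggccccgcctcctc
The window of Ldha holds 5 matches to ACGTG, among them 2 E-boxes, which match on both strands. That of Slc16a3 holds 2 matches, that of Hk3 holds 1, and those of Aldoc and Ldhb hold none. Where a gene has several windows, the first one, farthest upstream on the strand of the gene, is shown and counted. Aldoa and Pkm, which both fell, held ACGTG only in a later window and are not counted as holding it. Of the 35 members with a window (Slc2a3 is not in the promoter table), 12 held ACGTG in it (34.3%), against 16.5% of the first windows of all genes. GCGTG was in 19 of 35 (54.3%, against 28.3% of all genes) and CACGTG in 3 of 35 (8.57%, against 6.04%). The members' windows were richer in G and C, with a median of 59.6% against 52% over all genes. By the test of the treatment, 8 of the 24 members that fell held ACGTG in the first window, as did 4 of the 9 members with a window that were not called and 0 of the 2 that rose. For GCGTG it was 14 of the 24 that fell, 3 of the 9 not called and 2 of the 2 that rose. A match describes the letters only.

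Of the 36 members, 24 were lower in the JHU083 samples by edgeR's quasi-likelihood test at an adjusted p under 0.05 (66.7%, against 18.3% of all tested loci), and 2 were higher, Ldhb and Pfkfb4 (5.56%, against 18.4%). The other 10 did not pass the threshold, and 36.7% of all tested loci were called in either direction. The median log2 fold change over the members was -0.47, and over all tested loci it was 0.01. The members that fell had a median change of -0.55, and all loci that fell had one of -0.58. For 18 members every JHU083 sample was below every vehicle sample (50% of the members, against 11.1% of all loci), and for 1, Ldhb, every JHU083 sample was above (11.2% of all loci). Because these are sorted bulk samples, fewer cells of a kind with high expression and less RNA per cell cannot be told apart.

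**Figure D1:**
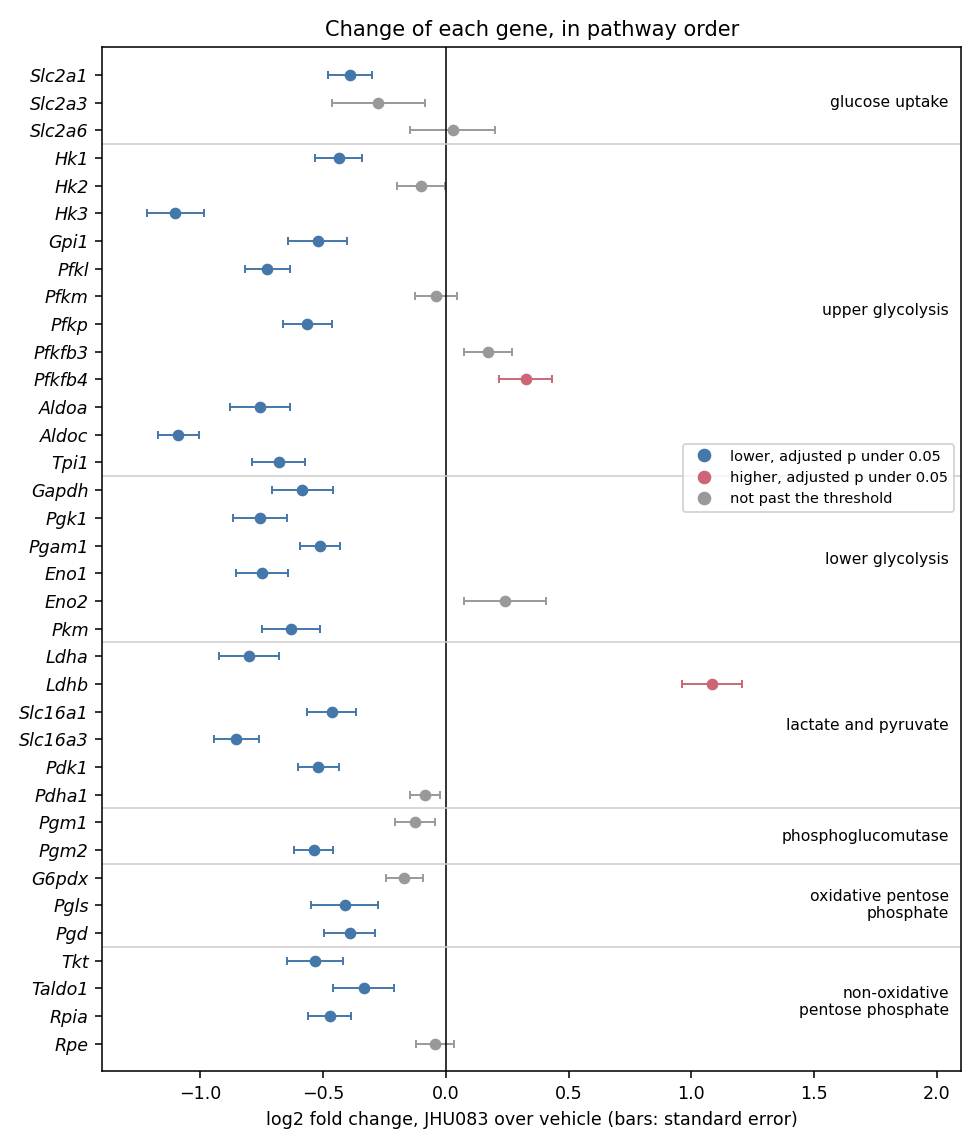
Log2 fold change of each of the 36 genes, JHU083 over vehicle (x axis, points with standard error bars), in pathway order from top to bottom, with 5 samples in each group. 24 points are coloured as lower, 2 as higher (Pfkfb4 and Ldhb) and 10 as not past the threshold.

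The fall was found in most steps of the pathways. It was called for 1 of 3 glucose transporters, 8 of 12 genes of upper glycolysis, 5 of 6 of lower glycolysis, 4 of 6 of lactate and pyruvate handling, 1 of 2 phosphoglucomutases, 2 of 3 of the oxidative arm and 3 of 4 of the non-oxidative arm. Within the 5 samples in which the ribosomal RNA loci were at 0, 15 members were lower and 1 higher (4.61% and 4.18% of all loci), and within the other 5 samples 21 were lower and 1 higher (11.9% and 9.86%). All 26 called members had the same direction in both sets. The calls came from these same samples, so the shared direction is not separate evidence. When libraries were scaled by their total alone, 26 members were lower and 1 higher, and over all loci 3141 were lower and 1564 higher (25.1% and 12.5%), against 2293 and 2296 with the main scaling.

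As a share of all fragments, the 36 members together took 1.94, 1.76, 1.58, 1.84 and 2.0% in vehicle replicates 1 to 5 and 1.16, 0.972, 1.30, 1.08 and 1.18% in JHU083 replicates 1 to 5. The groups did not overlap. The members moved together among replicates as well: vehicle replicate 5 was the highest of its group for 20 of 36 members and vehicle replicate 3 the lowest for 24, while these replicates were highest and lowest for 24.3% and 25.7% of all loci. JHU083 replicate 3 was the highest of its group for 22 members (32.7% of all loci), and JHU083 replicate 2 the lowest for 19 (22.3%).

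**Figure D2:**
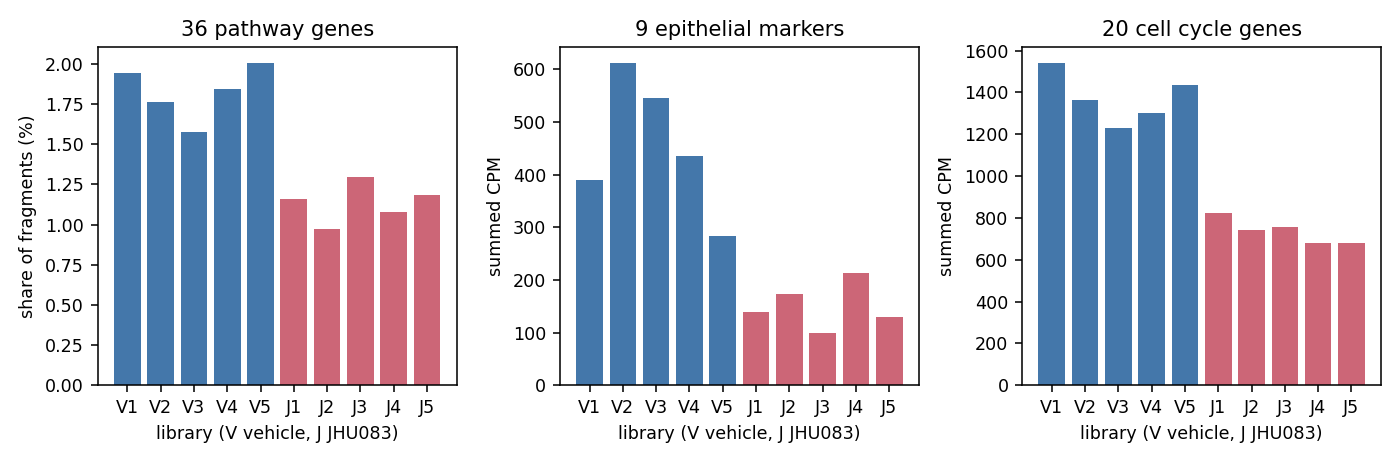
Bars give, for each of the 5 vehicle (V, blue) and 5 JHU083 (J, red) libraries, the percent of fragments at the 36 member loci and the summed CPM of 9 epithelial and 20 cell cycle genes. All 3 measures are lower in the JHU083 samples. Within the vehicle group V5 has the highest member share and the lowest epithelial sum, and V3 has the lowest member share and the lowest cell cycle sum.

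Markers of other cells moved with the treatment. The summed level of 9 epithelial genes, used as markers of the tumour cells, ranged from 283 to 611 CPM in vehicle and from 100.2 to 214 CPM in JHU083 samples, with 8 of 8 tested genes lower and Krt5 under 1 CPM in every library. Within the vehicle group, replicate 5 had the lowest epithelial sum (283 CPM) and the highest member share, and within the JHU083 group replicate 3 had the lowest epithelial sum (100.2 CPM) and the highest member share. The sum of 7 fibroblast genes went from 103–226 to 25.9–115 CPM (5 of 7 lower) and that of 5 endothelial genes from 122–210 to 34.4–82.6 CPM (1 of 3 tested lower, Tek and Cldn5 under 1 CPM). Most of the endothelial sum was Pecam1, the 1 lower gene (150.5 and 52.5 CPM on average), while Kdr and Cdh5 were not called. The sum of 20 cell cycle genes was 1231 to 1538 CPM in vehicle and 681 to 823 CPM in JHU083 samples, with 18 of 20 lower. Within the vehicle group, replicates 1 and 5 had the highest member shares and the highest cell cycle sums (1538 and 1436 CPM) and macrophage sums (23598 and 24177 CPM), and replicate 3 had the lowest of all 3 (1231 and 18992 CPM). Within the JHU083 group, the highest cell cycle sum was that of replicate 1 (823 CPM), and replicate 3 had the highest macrophage sum (31853 CPM) and the highest member share. The part of these cells and of proliferation in the members' fall was not tested.

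The lists for leukocytes did not share a direction. Macrophage genes summed to 18992–24177 CPM in vehicle and 23888–31853 CPM in JHU083 samples (4 of 10 higher, none lower). Monocyte genes summed to 322–387 and 294–527 CPM (1 of 4 tested higher, Ly6c2 under 1 CPM). Neutrophil genes summed to 90.5–102 and 92.3–141 CPM (1 higher and 2 lower of 4 tested, with Ly6g, Mpo, Elane, Camp and Ngp under 1 CPM). Most of that sum was Csf3r, which rose from 58.4 to 84.5 CPM on average, while S100a9 fell from 16.2 to 3.61 CPM and S100a8 from 7.32 to 2.78 CPM. T cell genes summed to 15.9–19.6 and 28–45.1 CPM, with Cd3d, Cd3e and Cd8a under 1 CPM. The sum did not overlap between the groups, and most of it was Cd4 (14.7 ± 1.37 and 31.8 ± 5.98 CPM), the 1 higher of 2 tested genes. Eosinophil genes summed to 3.68–10.6 and 6.64–17.4 CPM (1 of 3 tested higher, Epx and Il5ra under 1 CPM), dendritic genes to 6.71–9.75 and 5.69–14.5 CPM (0 of 4 called), B cell genes to 2.58–3.77 and 3.47–5.14 CPM (1 of 1 tested higher) and NK cell genes to 11.2–14.2 and 7.31–11.9 CPM (0 of 1 called, Klra8 at 0).

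Glucose enters through transporters of the SLC2A family. Slc2a1, which encodes the widely expressed GLUT1, measured 349, 388, 407, 399 and 407 CPM in vehicle replicates 1 to 5 and 291, 251, 287, 297 and 361 CPM in JHU083 replicates 1 to 5 (values of both groups are given in this order throughout). It fell by 0.39 ± 0.09 (SE) on the log2 scale (adjusted p = 0.00381), although JHU083 replicate 5 lay above vehicle replicate 1. In the samples with the ribosomal RNA loci above 0 alone, its change was -0.33 with an adjusted p of 0.144. The other transporters were not called: Slc2a3 (GLUT3) averaged 6.89 ± 0.777 CPM in vehicle and 5.71 ± 1.73 in JHU083 samples, and Slc2a6, a transporter of lysosomes, averaged 18.6 ± 2.08 and 19 ± 6.07 (SD, n = 5). Slc2a3 had the lowest counts of all members, 56 fragments in 1 library.

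Hexokinases trap glucose by phosphorylation, and the 3 genes for them did not change alike. Hk3, the isoform typical of myeloid cells, measured 152, 145, 133, 167 and 174 CPM in vehicle and 72.0, 54.3, 77.8, 67.1 and 87.7 CPM in JHU083 samples. The groups were far apart and Hk3 had the largest fall of any member, 2.15-fold (log2 change -1.10 ± 0.12, adjusted p = 1.37e-05). Hk1, the isoform of most tissues, fell from 72.1 ± 7.63 to 53.3 ± 5.71 CPM (log2 change -0.44 ± 0.09, adjusted p = 0.00269, and 0.0504 in the samples with the ribosomal RNA loci above 0). Hk2, the isoform known for its response to hypoxia and insulin, measured 150.3, 162, 174, 188 and 207 CPM in vehicle and 156, 187, 138, 167 and 173 CPM in JHU083 samples, so the groups overlapped over most of their range (-0.10 ± 0.10, adjusted p = 0.438). By the authors' FPKM, which divides by transcript length, Hk2 made up 27.6 to 34.9% of the hexokinase transcripts in vehicle and 39.8 to 53.9% in JHU083 samples, and Hk3 46.8 to 52.4% and 26.5 to 41.0%. Hk3 had the largest share in every vehicle library.

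**Figure D3:**
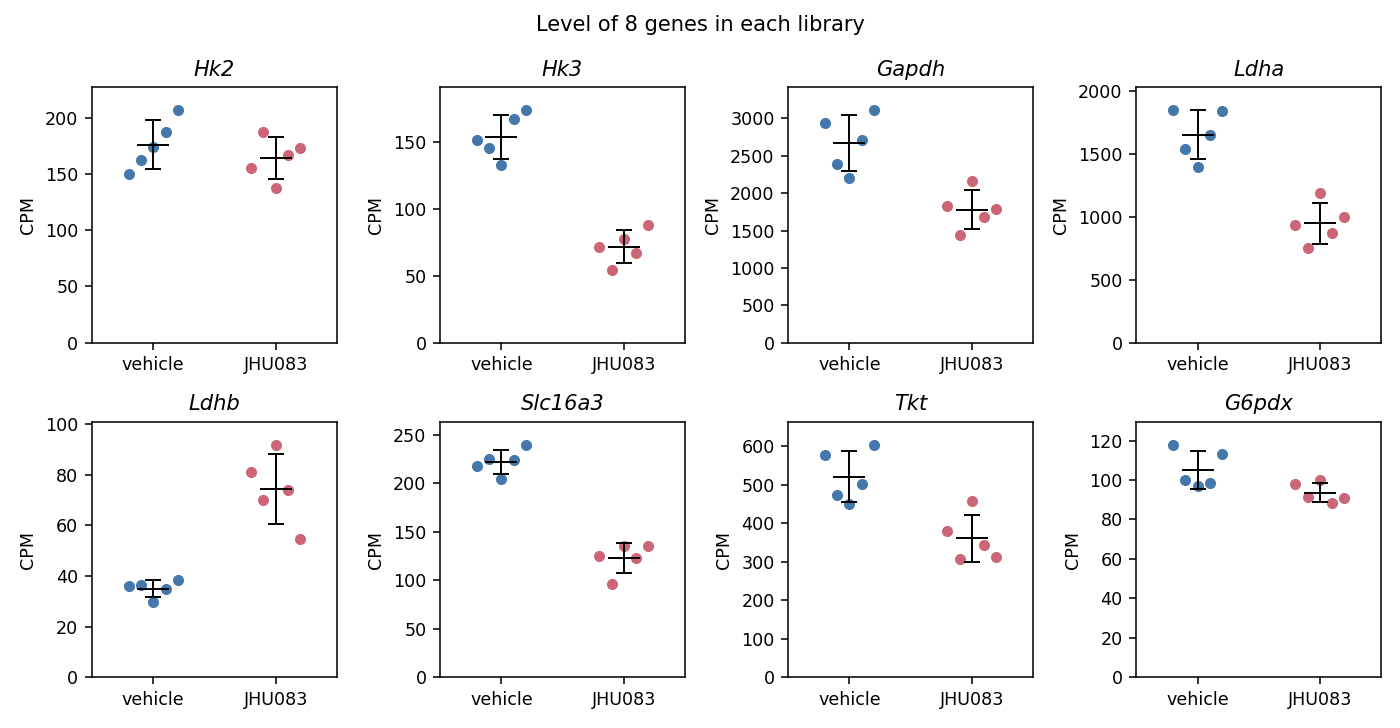
CPM (y axis, from 0) of 8 members in the 5 vehicle (blue) and 5 JHU083 (red) libraries, with each group's mean and SD as black lines. The groups are apart for Hk3, Gapdh, Ldha, Ldhb and Slc16a3, and overlap for Hk2, Tkt and G6pdx.

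The next enzymes bring the sugar to the committed step. Gpi1, which isomerises glucose-6-phosphate, fell from 1322 ± 199.5 to 920.3 ± 133 CPM (log2 change -0.52 ± 0.12, adjusted p = 0.00424), with JHU083 replicate 3 (1125 CPM) above vehicle replicate 3 (1091 CPM). In the samples with the ribosomal RNA loci at 0 its change was -0.37 with an adjusted p of 0.164. Phosphofructokinase-1 commits the sugar to glycolysis. Its liver-type subunit Pfkl measured 318, 281, 278, 318 and 338 CPM in vehicle and 183, 164, 220.1, 164 and 195 CPM in JHU083 samples, a fall of 1.66-fold with no overlap (-0.73 ± 0.09, adjusted p = 5.01e-05). The platelet-type subunit Pfkp fell from 151 ± 4.97 to 102 ± 17.8 CPM (-0.56 ± 0.10, adjusted p = 0.000727, and 0.0535 in the samples with the ribosomal RNA loci above 0), and the muscle-type subunit Pfkm was at 16.8 to 19.4 and 16.2 to 19.2 CPM (-0.04 ± 0.09, adjusted p = 0.747). Pfkm was 4.17 to 4.55% of phosphofructokinase-1 FPKM in vehicle and 4.67 to 6.80% in JHU083 samples.

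Phosphofructokinase-2 enzymes make the allosteric activator of phosphofructokinase-1, and neither of their member genes was lower. Pfkfb4 measured 45.2, 38.8, 36.6, 41.4 and 47.9 CPM in vehicle and 53.0, 59.0, 61.0, 44.3 and 45.6 CPM in JHU083 samples. JHU083 replicates 4 and 5 lay within the vehicle range, and the rise was called by a small margin (0.33 ± 0.11, adjusted p = 0.0295). It was not called without vehicle replicate 2, 3 or 4 or JHU083 replicate 1 or 2 (changes of 0.28 to 0.32, adjusted p of 0.0520 to 0.0712), nor with scaling by library total (0.25, adjusted p = 0.0807), nor in the samples with the ribosomal RNA loci at 0 (0.42, adjusted p = 0.0958) or above 0 (0.27, adjusted p = 0.235). Pfkfb3, whose product strongly favours the activator's synthesis, was at 118 ± 13.3 and 133 ± 16.8 CPM (0.17 ± 0.10, adjusted p = 0.188).

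Aldolase and triosephosphate isomerase yield the triose phosphates, and all 3 of their genes fell with no overlap. Aldoa, the main aldolase here, measured 1686, 1349, 1258, 1539 and 1771 CPM in vehicle and 893, 719, 1052, 850.4 and 986 CPM in JHU083 samples (log2 change -0.76 ± 0.12, adjusted p = 0.000326). Aldoc, best known from the brain, measured 63.8, 59.7, 56.4, 60.3 and 62.7 CPM in vehicle and 28.6, 24.5, 28.3, 28.3 and 32.5 CPM in JHU083 samples, a 2.13-fold fall (-1.09 ± 0.08, adjusted p = 1.48e-06). The small spread within both groups gave Aldoc the lowest adjusted p of the members. It was 2.46 to 2.91% of aldolase FPKM in vehicle and 1.74 to 2.29% in JHU083 samples. Tpi1 fell from 1053 ± 117 to 657 ± 87.9 CPM (-0.68 ± 0.11, adjusted p = 0.000267).

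The pay-off phase, from glyceraldehyde-3-phosphate to pyruvate, fell at every step. Gapdh, often used as a reference gene, measured 2939, 2393, 2207, 2712 and 3107 CPM in vehicle and 1823, 1442, 2162, 1688 and 1791 CPM in JHU083 samples. The highest JHU083 sample (2162 CPM) lay just under the lowest vehicle sample (2207 CPM), and the fall was 1.5-fold (-0.58 ± 0.13, adjusted p = 0.00266). In the samples with the ribosomal RNA loci at 0 alone the change was -0.45 with an adjusted p of 0.0938. Pgk1, which makes ATP, fell from 989 ± 97.3 to 585 ± 89.9 CPM (-0.76 ± 0.11, adjusted p = 0.000166). Pgam1, the phosphoglycerate mutase, fell from 690.1 ± 54.3 to 484 ± 46.0 CPM (-0.51 ± 0.08, adjusted p = 0.000318). Its change in the samples with the ribosomal RNA loci at 0 was -0.46 with an adjusted p of 0.0563.

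Of the enolases, Eno1 measured 1357, 1135, 1087, 1199 and 1384 CPM in vehicle and 717, 605, 857, 703 and 783 CPM in JHU083 samples (-0.75 ± 0.10, adjusted p = 0.000115). All vehicle samples were above all JHU083 samples. Eno1b, a near-identical copy of Eno1 that was singled out after its values were seen, was counted as its own locus. Its fragments were 0.249 to 0.261 times those of Eno1 in vehicle and 0.244 to 0.261 times in JHU083 samples, so the levels of this pair are uncertain where the counting divided reads between them. The other copies looked up, among them Pgk1-rs7 and Pgam1-ps2, reached at most 2.61 CPM. Eno2, the neuronal enolase, was at 11.4 ± 1.80 and 13.5 ± 3.53 CPM and was not called (0.24 ± 0.17, adjusted p = 0.272). Its share of the summed FPKM of Eno1 and Eno2 was 0.594 to 1.17% in vehicle and 1.45 to 2.31% in JHU083 samples. Pkm, which encodes both splice forms M1 and M2 of pyruvate kinase, measured 3137, 2752, 2591, 2909 and 3244 CPM in vehicle and 1913, 1454, 2227, 1804 and 2050.5 CPM in JHU083 samples. Every JHU083 sample lay below the vehicle range, and the fall was 1.55-fold (-0.63 ± 0.12, adjusted p = 0.00111). Counts per locus do not separate the splice forms.

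The 2 lactate dehydrogenase subunits moved in opposite directions. Ldha, the subunit that favours making lactate from pyruvate, measured 1847, 1541, 1394, 1649 and 1846 CPM in vehicle and 934, 752, 1187, 874 and 1003 CPM in JHU083 samples. It fell 1.74-fold (-0.80 ± 0.12, adjusted p = 0.000236). Ldhb, the subunit that favours the use of lactate, measured 36.1, 36.3, 29.6, 34.8 and 38.4 CPM in vehicle and 81.2, 70.3, 91.8, 74.1 and 54.7 CPM in JHU083 samples. The lowest JHU083 sample was above the highest vehicle sample, and Ldhb rose by 1.09 ± 0.12 (adjusted p = 2.07e-05), the largest rise of the members. Ldhb was 2.51 to 3.01% of lactate dehydrogenase FPKM in vehicle and 6.53 to 11.2% in JHU083 samples, so Ldha remained the main subunit in all 10 libraries.

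**Figure D4:**
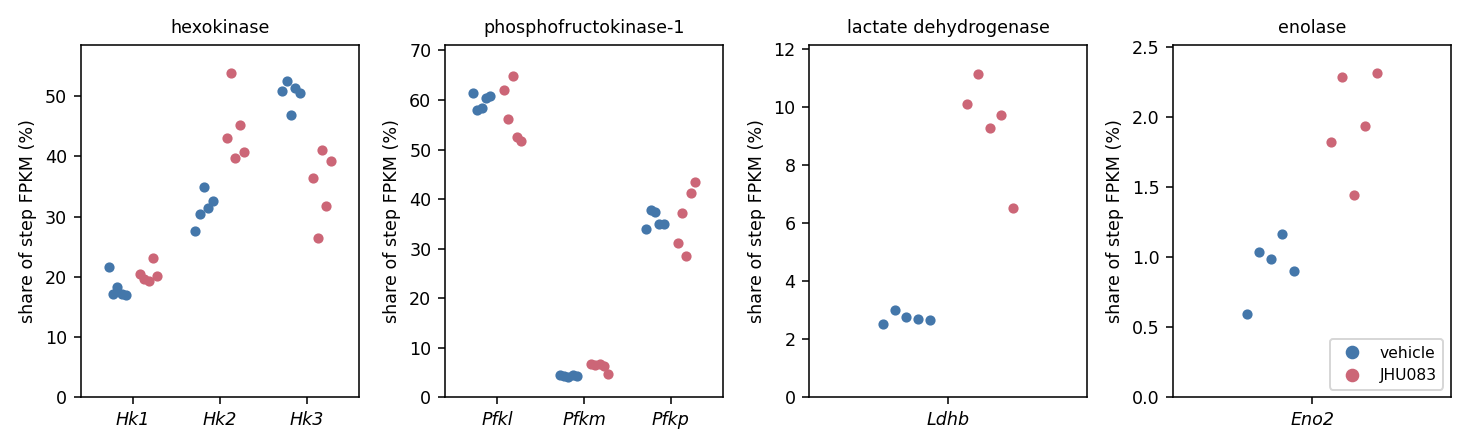
Percent of its step's summed FPKM (y axis) for the isozymes of hexokinase and phosphofructokinase-1 and for Ldhb (of Ldha and Ldhb) and Eno2 (of Eno1 and Eno2), with 1 point for each of the 5 vehicle (blue) and 5 JHU083 (red) libraries. The Hk2 and Ldhb shares are higher in every JHU083 sample than in any vehicle sample, and the Hk3 share is lower.

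Both member genes for lactate transporters fell. Slc16a3, which encodes MCT4, the exporter of strongly glycolytic cells, measured 218, 225, 204, 224 and 239 CPM in vehicle and 125, 96.4, 135, 123 and 135 CPM in JHU083 samples (1.81-fold lower, -0.85 ± 0.09, adjusted p = 1.46e-05). Slc16a1 (MCT1) measured 55.2, 65.4, 62.4, 51.5 and 47.1 CPM in vehicle and 39.4, 36.7, 40.6, 45.8 and 41.5 CPM in JHU083 samples. Its groups were apart by a narrow gap (-0.47 ± 0.10, adjusted p = 0.00232, and 0.121 in the samples with the ribosomal RNA loci at 0), and its share of the FPKM of both transporters was 7.23 to 9.72% in vehicle and 9.77 to 11.4% in JHU083 samples. Pdk1, the kinase that turns off pyruvate dehydrogenase, fell from 33.4 ± 3.2 to 23.3 ± 0.931 CPM (-0.52 ± 0.08, adjusted p = 0.000350). Pdha1, a catalytic subunit of pyruvate dehydrogenase, was at 123 ± 5.39 and 116 ± 3.85 CPM and was not called (-0.08 ± 0.06, adjusted p = 0.303).

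Phosphoglucomutases connect glucose-6-phosphate with glycogen. The locus listed as Pgm2 measured 102, 96.4, 97.9, 114 and 108 CPM in vehicle and 66.4, 67.7, 80.1, 67.8 and 74.7 CPM in JHU083 samples, a fall with no overlap (-0.54 ± 0.08, adjusted p = 0.000159). The locus listed as Pgm1 was at 42.7 ± 3.22 and 39.2 ± 2.80 CPM (-0.12 ± 0.08, adjusted p = 0.241), though it was called lower with scaling by library total (-0.21, adjusted p = 0.0429). In the table, the locus listed as Pgm2 stands beside Efcab7 and Ror1, where the GENCODE M21 annotation has Pgm1, and the locus listed as Pgm1 stands beside Tbc1d1, where that annotation has Pgm2. The 2 symbols are therefore exchanged relative to that annotation.

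In the oxidative arm, the first enzyme was not called and the other 2 were lower. G6pdx, glucose-6-phosphate dehydrogenase, which sets the flow into the pathway, measured 118, 100.03, 96.8, 98.4 and 113 CPM in vehicle and 98.1, 91.2, 99.8, 88.4 and 90.6 CPM in JHU083 samples. The ranges overlapped (-0.17 ± 0.08, adjusted p = 0.0968), and scaling by library total gave -0.25 with an adjusted p of 0.0150. Pgd, the dehydrogenase that yields ribulose-5-phosphate, measured 412, 324, 307, 370.1 and 422 CPM in vehicle and 270.0, 241, 329.8, 278 and 279 CPM in JHU083 samples (-0.39 ± 0.10, adjusted p = 0.00886), with JHU083 replicate 3 inside the vehicle range. Pgls, the lactonase between them, fell from 119.6 ± 17.2 to 90.0 ± 19.7 CPM (-0.41 ± 0.14, adjusted p = 0.0294), at a locus that also lists Fam129c. That call was not kept without vehicle replicate 1, 4 or 5 or JHU083 replicate 1, 2, 4 or 5 (changes of -0.34 to -0.40, adjusted p of 0.0587 to 0.0746). In the samples with the ribosomal RNA loci at 0, the change was -0.31 for Pgd (adjusted p = 0.226) and -0.25 for Pgls (adjusted p = 0.402).

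In the non-oxidative arm, Tkt, transketolase, measured 577, 474, 450.3, 503 and 603 CPM in vehicle and 380.4, 308, 458, 343 and 314 CPM in JHU083 samples, at a locus that also lists the microRNA Mir3076. Only JHU083 replicate 3 reached the vehicle range, and the fall was 1.45-fold (-0.53 ± 0.11, adjusted p = 0.00267). Rpia, which makes ribose-5-phosphate for nucleotides, measured 33, 31.5, 27.8, 32.1 and 34.8 CPM in vehicle and 23.3, 22.8, 24.8, 23.6 and 20.2 CPM in JHU083 samples, with no overlap (-0.47 ± 0.09, adjusted p = 0.000917). In the samples with the ribosomal RNA loci at 0 the adjusted p was 0.192 for Tkt (change -0.33), 0.0718 for Rpia (change -0.44) and 0.610 for Taldo1 (change -0.14). Taldo1, transaldolase, fell from 419 ± 63.5 to 332 ± 59.4 CPM at the edge of the threshold (-0.33 ± 0.13, adjusted p = 0.0491). Without vehicle replicate 1, 4 or 5 or JHU083 replicate 1, 2, 4 or 5 it was not called (changes of -0.26 to -0.35, adjusted p of 0.0700 to 0.124), and limma-voom gave an adjusted p of 0.0502. Rpe, the epimerase, was at 36.9 ± 2.21 and 35.7 ± 2.39 CPM and was not called (-0.05 ± 0.08, adjusted p = 0.671).

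Levels were compared between steps by the authors' FPKM summed over the members of each step. Gapdh stood highest with 2311 ± 377 FPKM (SD, n = 5) in vehicle and 1508 ± 212 in JHU083 samples. Pyruvate kinase (1211 ± 107 in vehicle), aldolase (1180 ± 152) and lactate dehydrogenase (1150 ± 129.6) followed, with overlapping ranges over the vehicle libraries. Differences between steps within a library were not tested. Far below were the regulated entry steps: phosphofructokinase-1 had 143 ± 6.05 and hexokinase 99.99 ± 7.83 FPKM in vehicle, against 99.5 ± 12.2 and 66.6 ± 6.25 in JHU083 samples. Phosphofructokinase-2 was the 1 step with a higher mean in JHU083 samples, at 53.9 ± 7.15 against 43.9 ± 4.28 FPKM, with overlapping groups. G6pdx had 44.1 ± 2.77 FPKM in vehicle. Rpia and Rpe were the lowest steps, at 18.3 ± 1.58 and 17.9 ± 2.02 FPKM in vehicle, with overlapping ranges. In JHU083 samples Rpia ranged from 11.3 to 14.0 FPKM and Rpe from 16.1 to 21.3 FPKM, with no overlap.

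**Figure D5:**
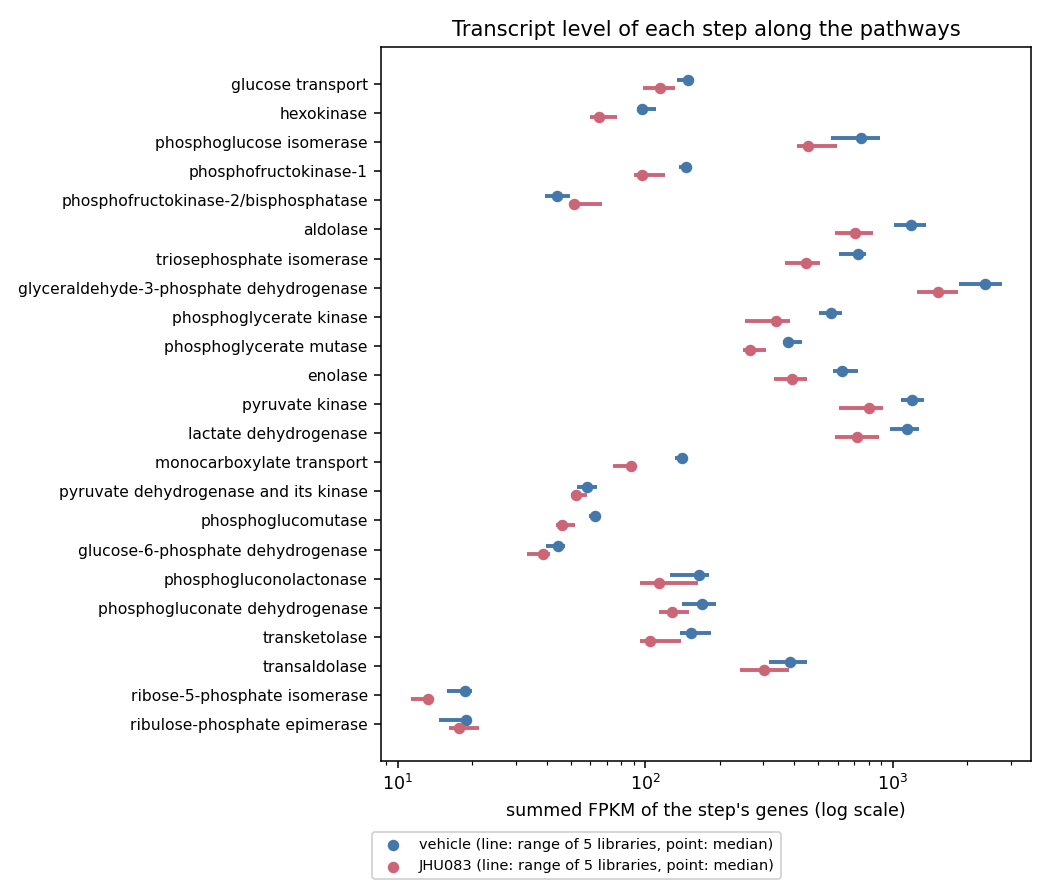
Summed FPKM of each pathway step on a log axis, as the median (point) and range (line) of the 5 vehicle (blue) and 5 JHU083 (red) libraries. The Gapdh step is highest in both groups, and the phosphofructokinase-2 step is the 1 whose median is higher in JHU083 samples.

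Other genes of the same pathways, from a list of 49, showed no common direction. Of the 32 that were tested 6 were higher and 5 lower (18.8% and 15.6%, near the 18.4% and 18.3% of all loci), with a median change of 0.04. Eno3, the muscle enolase, fell from 18.1 ± 1.55 to 8.85 ± 0.563 CPM (-1.04 ± 0.10, adjusted p = 6.91e-06), and Pfkfb1, the liver form of phosphofructokinase-2, by 0.79 ± 0.23 from 1.98 ± 0.340 CPM (adjusted p = 0.0159). Tigar, a bisphosphatase that diverts sugar to the pentose phosphate pathway, and Pdk3, another pyruvate dehydrogenase kinase, changed by -0.40 and -0.33. The 4 largest rises were Pfkfb2 (0.60, at a locus that also lists C4bp-ps1 and Gm29427), Pgm2l1 (0.52), Pdk2 (0.47) and the pyruvate dehydrogenase phosphatase Pdp1 (0.37). Named after their values were seen, the remaining called genes were Slc16a7, Prps2 and Bsg. Slc16a7, which encodes MCT2, another monocarboxylate transporter, rose from 24.7 ± 2.19 to 31.4 ± 1.85 CPM with no overlap (0.35 ± 0.08, adjusted p = 0.00549), opposite in direction to Slc16a1 and Slc16a3. Its adjusted p was 0.176 and 0.101 in the samples with the ribosomal RNA loci at 0 and above 0. Prps2, a ribose-phosphate diphosphokinase, rose (0.23), and Bsg, the chaperone of monocarboxylate transporters, fell (-0.30). Eno3 kept its call under every alternative run. The others did not: without single samples Pfkfb2 lost its call (vehicle 1 or 4 or JHU083 2 or 5, adjusted p up to 0.0929), as did Pgm2l1 (vehicle 1 or 5 or JHU083 2 or 5, up to 0.0638), Pdk2 (vehicle 1 or 2 or JHU083 1 or 2, up to 0.0643), Pdp1 (each but vehicle 3 and JHU083 1 and 3, up to 0.0918), Tigar (each but vehicle 3 and JHU083 3, up to 0.131), Prps2 (each but vehicle 1 and 5 and JHU083 3, up to 0.0957) and Bsg (vehicle 1 or 5 or JHU083 4 or 5, up to 0.0605). Pfkfb1 and Pdk3 lost theirs only in other alternatives, among them the samples with the ribosomal RNA loci at 0. The counts moved as well: 1 to 3 genes were higher without vehicle replicate 1, 2 or 4 or JHU083 replicate 2 or 5, and 3 were lower without vehicle replicate 1 or 5 or JHU083 replicate 4 or 5.

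Among 26 known regulators of these pathways, 25 were tested, 5 were higher and 3 lower (20% and 12%, against 18.4% and 18.3% of all loci), with a median change of 0.12. Myc fell from 50.4 ± 10.1 to 27.3 ± 3.83 CPM (SD, n = 5) with no overlap (-0.88 ± 0.14, adjusted p = 0.000256), and kept its call under every alternative run. Hif1a, the oxygen-regulated activator of glycolysis, rose from 263 ± 22.1 to 315 ± 40.9 CPM (0.26 ± 0.09, adjusted p = 0.0421). That rise was lost without vehicle replicate 1, 4 or 5 or JHU083 replicate 1, 2, 4 or 5 (0.23 to 0.27, adjusted p of 0.0648 to 0.103) and with library totals (0.18, adjusted p = 0.186). It was also lost with upper quartile factors (adjusted p = 0.0612), limma-voom (0.0537) and the replicate block (0.108), and in the samples with the ribosomal RNA loci at 0 (0.557) and above 0 (0.0838), so 13 of 23 alternatives ended the call. Epas1, which encodes the related HIF2A, rose from 28.1 ± 7.31 to 46.8 ± 10.8 CPM (0.74 ± 0.18, adjusted p = 0.00688), with 0.34 and an adjusted p of 0.185 in the samples with the ribosomal RNA loci at 0. The partner Arnt (0.15), the ubiquitin ligase subunit Vhl (0.17), the oxygen sensors Egln1 (-0.19) and Egln3 (-0.28) and the glucose-responsive Txnip (0.22) were not called. Egln1 was called lower without JHU083 replicate 3 (-0.21, adjusted p = 0.04995) and with library totals, and Txnip higher without vehicle replicate 5 or JHU083 replicate 3 (0.24 to 0.27, adjusted p of 0.0416 to 0.0419). The other called genes were Tsc1 (0.48), Arrdc4 (0.47) and Nfe2l2 (0.33), which rose, and Trp53 (-0.44) and Sirt6 (-0.25), which fell. The Sirt6 call was lost without any sample but vehicle 4 and JHU083 3 (adjusted p up to 0.112). Within the samples with the ribosomal RNA loci at 0, none of the regulators was called higher and 1 was called lower.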

How the data were processed

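RNA of 10 sorted macrophage samples was sequenced from poly(A)-selected, paired-end libraries, per the labels' protocols. Per the submitters' processing notes, bcl2fastq 2.17.1.14, FastQC 0.11.2, TopHat2 2.1.1 and build GRCm38 were used; the counting program and annotation are not given in the sources used here. The authors deposited, for each locus, an estimated count (expected count) that is a whole number of fragments times a step of 0.888 to 1.17 set by the library, and a normalized value per length, read here as FPKM from how it scales with that count. Dividing by the step gave whole numbers, within 0.01, for 99.8 to 100.0% of values under 30 fragments, and these fragments were tested.

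The main test was edgeR 4.0.16 (quasi-likelihood F-test, filterByExpr, TMM factors) in R 4.3.3, with Benjamini-Hochberg adjustment over all 12500 loci tested and a threshold of 0.05. CPM values use the TMM-scaled library sizes. The standard error is the absolute log2 fold change over the square root of F. One row with no symbol (0.00169% of fragments) was left out, and 1060 loci that list several symbols (12.7% of fragments) were kept. On simulated data for this comparison with 200 of 12500 loci changed by 1 on the log2 scale, edgeR recovered 80% of them with 6.43% false calls, and it made 0 calls with no change. In the real data 4589 loci were called, and the members that fell had a median change of -0.55. The simulation also held no sets of samples that differ in the ribosomal RNA loci, so its rates need not hold here. Alternatives were other scalings and filters, DESeq2 1.42.0, limma-voom (limma 3.58.1), subsets of samples, a replicate block and leaving out each sample. No 2 libraries of a group were alike within sampling noise (lowest chi-square per degree of freedom 5.46).

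The members and the gene lists were chosen with earlier results of these data known. Named are all 36 members and, of each other pathway list, up to 4 called genes with the largest rise and 4 with the largest fall, with Hif1a, Arnt, Vhl, Egln1, Egln3, Myc and Txnip named in any case. Marker lists for macrophages, monocytes, neutrophils, eosinophils, dendritic, T, B and NK cells, tumour epithelium, fibroblasts, endothelium and the cell cycle are given as sums. One further marker list is not reported here. Promoters are from RefSeq (GRCm38.p6).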

Additional observations from a re-analysis of the deposited data

Results flagged for a closer look

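In the JHU083 group, replicate 2 had the lowest Slc16a3 level, 6.59 log2 CPM (96.4 CPM), while the other 4 samples lay between 6.94 and 7.08 log2 CPM (123 to 135 CPM). The gap to the next sample was 0.715 of the range of the group, above the critical value of 0.71 for 5 samples. Over the 72 groups examined, chance gives about 3.6 such values. Without JHU083 replicate 2, Slc16a3 was still called lower.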

How the results depend on the processing

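Of 826 recomputed member values, 776 kept their direction and side of the threshold, 38 lost the call, 2 gained one (Pgm1 and G6pdx, with library totals) and 10 changed sign. Of 712 values of the named genes of the other lists, 576 were the same in this sense, 132 lost the call, 4 gained one and 0 changed sign. Of the 26 called members, 13 kept the call under every alternative run and 23 kept it without each sample in turn. The sign changes were all in members that were not called. For Slc2a6 the change was -0.049 with library totals, -0.019 with limma-voom, -0.26 in the samples with the ribosomal RNA loci above 0, -0.010 with the replicate block, -0.026 without vehicle replicate 3 and -0.18 without JHU083 replicate 1, the lowest of its values without single samples (highest 0.13). For Hk2 it was 0.10 in the samples with those loci above 0, and for Pfkm, Pfkfb3 and Eno2 it was 0.025, -0.019 and -0.096 in the samples with them at 0. The cause was not tested.

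In the samples with the ribosomal RNA loci at 0 (3 against 2), 532 loci were higher and 586 lower over the table, 1 member was higher and 15 lower, 0 and 1 of the other pathway genes, 1 and 1 of the glycogen and gluconeogenesis genes and 0 and 1 of the regulators. In those with the loci above 0, 1276 loci were higher over the table, 1 member was higher, 2 and 3 of the other pathway genes were higher and lower, 2 and 1 of the glycogen genes, and 3 regulators were higher. Both sets hold fewer samples than the whole. Library totals gave 1 higher member, 1 higher gene of the other pathway list, and 2 higher and 8 lower glycogen genes, with the median of all loci moved by -0.08; upper quartile scaling gave 5 lower glycogen genes. Without single samples, the counts ranged from 1821 to 2899 higher and 1900 to 2930 lower over all loci, 1 to 2 and 22 to 24 for the members, 1 to 6 and 3 to 7 for the other pathway genes, 3 to 4 and 2 to 6 for the glycogen genes and 4 to 7 and 2 to 4 for the regulators.

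With the replicate block, 1 member was higher and 22 lower (12.9% and 14.1% of all loci; Pfkfb4, Pgls and Taldo1 lost their calls), 3 and 3 of the other pathway genes were higher and lower, and 2 glycogen genes were higher. Same-numbered samples had a mean correlation of deviations of -0.193, and 0 of 5 correlated best with their own number. In every same-numbered pair the ribosomal RNA loci stood at 0 in 1 sample and above 0 in the other. The correlation therefore cannot decide whether the numbers pair the samples. The identity of isozyme proteins was not analysed here.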

Other observations

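Genes of glycogen metabolism and gluconeogenesis, the routes that run beside or against glycolysis, were called in both directions at shares near those of all loci. Of 24 listed genes 20 were tested, and 4 were higher and 3 lower in the JHU083 samples (20% and 15%, against 18.4% and 18.3% of all loci), with a median change of -0.09. Fbp1, which encodes the gluconeogenic fructose bisphosphatase, rose from 1.25 ± 0.185 to 7.52 ± 1.30 CPM (SD, n = 5) with no overlap (log2 change 2.58 ± 0.19, adjusted p = 1.06e-06), and Gpd1, which links triose phosphates to glycerol, from 2.43 ± 0.627 to 5.49 ± 1.69 CPM (1.18 ± 0.24, adjusted p = 0.00196). Fbp1 and Gys1 kept their calls under every alternative run. Of the glycogen genes, Gyg, the primer of glycogen, and the branching enzyme Gbe1 rose by 0.28 and 0.25, and the glycogen synthase Gys1 fell from 50.8 ± 5.52 to 32.4 ± 4.38 CPM (-0.65 ± 0.10, adjusted p = 0.000354). Pcx, pyruvate carboxylase, and Slc37a4, the glucose-6-phosphate translocase, changed by -0.39 and -0.35. The Gbe1 call was lost without any sample but vehicle 4 and JHU083 1 and 2 (adjusted p up to 0.0984), and that of Pcx without any but vehicle 3 and JHU083 1 and 3 (up to 0.0950). The calls of Gpd1 (adjusted p = 0.0975), Gyg (0.0914), Slc37a4 (0.119), Gbe1 (0.326) and Pcx (0.697) were lost in the samples with the ribosomal RNA loci at 0, and in those with the loci above 0, the calls of Gyg (0.279), Slc37a4 (0.276), Gbe1 (0.221) and Pcx (0.0722). Gyg also lost its call with library totals (0.0579) and with the replicate block (0.0622). Without JHU083 replicate 3, 6 genes of this list were lower, and with scaling by library total 2 were higher and 8 lower.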
